A study of Mus musculus with 6 samples.

Results

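The genes described are 10 transcription factors of the AP-1 and EGR families, chosen by name, and all 10 are among the 56748 genes of the deposited count table. They are the FOS genes *Fos*, *Fosb*, *Fosl1* and *Fosl2*, the JUN genes *Jun*, *Junb* and *Jund*, the related gene *Atf3*, and the zinc finger genes *Egr1* and *Egr2*. The 6 libraries are of bulk RNA from cultured primary osteocytes, of which 3 are labelled WT and 3 cKO. The cKO mice carried floxed *Gsdmd* alleles (Gsdmd fl/fl) together with a DMP1-Cre transgene, so that gasdermin D, the pore-forming protein of pyroptosis, is deleted where the *Dmp1* promoter is or has been active. Cells were released from long bones by serial digestion and cultured for 7 days, and for C57BL/6 donors the methods give an age of 7 weeks. The cultures of both genotypes were stimulated for 3 h with 10 ng/mL of LPS and for a further 3 h with 20 µg/mL of aluminum hydroxide, an inflammasome activator. Unstimulated cultures were not analysed here, so that each value compares the genotypes under stimulation and none measures an induction.

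AP-1 is a dimer of basic leucine zipper (bZIP) proteins. FOS proteins cannot pair with each other and bind DNA only together with a partner such as a JUN protein, whereas JUN proteins can also pair among themselves. *Fos*, *Fosb*, *Jun*, *Junb*, *Atf3*, *Egr1* and *Egr2* are classic early response genes, transcribed within minutes of growth factor, cytokine, stress or Toll-like receptor signals through MAP kinases and then shut off again. In bone, c-Fos acts downstream of RANKL in osteoclast precursors, and Fra-1 and Fra-2, the products of *Fosl1* and *Fosl2*, act in bone-forming cells.

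The 6 libraries held 39566835 to 49734046 counts, and 17146 genes had enough counts to be tested. *Gsdmd* itself was counted 549 to 699 times in the WT libraries and 885 to 1045 times in the libraries labelled cKO (log2 fold change 0.69, SE, the standard error, 0.083, adjusted p = 2.27e-06, edgeR), against the direction of its label, so the genotype is given as labelled throughout. The count pools all exons, the floxed ones included. *Xist* was counted 0 to 4 times in WT against 44817 to 51216 times in the libraries labelled cKO, and the Y-linked genes *Ddx3y*, *Eif2s3y*, *Kdm5d* and *Uty* were at 0 counts in the latter and at 1203 to 5455 in WT. The labels name no sex, and sex and genotype cannot be told apart here. Of 6 osteocyte markers, only *Pdpn*, a gene of early osteocytes that other cells also express, had enough counts to be tested. It was counted 7743 to 11932 times and was lower in the libraries labelled cKO (log2 fold change -0.28, adjusted p = 2.99e-05, edgeR). *Sost* was at 0 in all 6 libraries, *Mepe* at 0 to 2 counts, *Dmp1* at 0 to 6 and *Phex* at 2 to 22, and *Fgf23* had 8 to 34 counts in WT against 0 to 6 in the others. All 16 macrophage markers were higher in the libraries labelled cKO, with a median log2 fold change of 3.02. Their summed level was 1257 to 1422 CPM (counts scaled by TMM to a library of 1000000) in WT against 6904 to 7271 CPM in the libraries labelled cKO, and none of them was at 0 in any library. In bulk RNA, more cells of a type and more RNA per cell cannot be told apart. The part of these markers in the differences described here was not tested.

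Windows of 250 bases before the RefSeq start were read for 8 of the 10 genes. *Fosl1* had no window in the source, and *Egr1* was left out before the search, so nothing is said here of its motifs. The letters TGACGT, the core of the cAMP response element bound by CREB and ATF proteins and by some AP-1 dimers, stood on either strand in 3 of the 8 windows, those of *Fos*, *Atf3* and *Egr2*. Of all 32851 windows in the table, 6.47% held these letters. These 3 are shown because they belong to the genes with the largest differences between genotypes, 2 of them higher and 1 lower, and the motifs were chosen after both had been seen. Each window is written 5′ to 3′ in the direction of transcription, placed on GRCm39 by exact match, with TGACGT or its complement ACGTCA in capitals and, in *Egr2*, also a CArG box, the site of serum response factor.
*Fos*, chr12:85520414-85520663, plus strand: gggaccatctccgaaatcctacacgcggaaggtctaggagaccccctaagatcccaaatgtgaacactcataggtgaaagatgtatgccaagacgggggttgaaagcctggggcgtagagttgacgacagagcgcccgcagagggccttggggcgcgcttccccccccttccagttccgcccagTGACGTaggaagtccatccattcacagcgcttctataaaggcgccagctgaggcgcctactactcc
*Atf3*, chr1:190915531-190915780, minus strand: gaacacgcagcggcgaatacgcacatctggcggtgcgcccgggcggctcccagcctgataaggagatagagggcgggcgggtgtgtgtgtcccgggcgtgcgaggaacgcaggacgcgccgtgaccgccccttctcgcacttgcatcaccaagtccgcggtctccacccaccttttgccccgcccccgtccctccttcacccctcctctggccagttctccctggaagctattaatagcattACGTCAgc
*Egr2*, chr10:67373449-67373698, plus strand: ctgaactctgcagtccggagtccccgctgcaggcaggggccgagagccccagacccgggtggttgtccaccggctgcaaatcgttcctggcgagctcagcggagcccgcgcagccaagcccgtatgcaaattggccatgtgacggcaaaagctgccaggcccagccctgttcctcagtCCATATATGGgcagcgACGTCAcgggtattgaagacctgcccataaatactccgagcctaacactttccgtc
In *Fos* the match began 66 bases before the start and a TATAAA stretch 33 bases before it. In *Egr2* the CArG box began 72 bases and the ACGTCA stretch 56 bases before the start. The source held 5 starts for *Egr2*, and only the one nearest the GENCODE canonical start was read. In *Atf3* the ACGTCA stretch began 8 bases before the RefSeq start, and the GENCODE start lies 7 bases upstream of that of RefSeq, so the match straddles the start. The CArG box was in 1 of the 8 windows and in 1.47% of all windows. Sites more than 250 bases before the start, in *Fos* or any other gene, lay outside the windows and were not searched. The AP-1 site TGANTCA was in 0 of the 8 and in 6.75% of all windows, and the EGR site GCGNGGGCG was in those of *Fosb* and *Fosl2* and in 4.7% of all windows. Only these exact letters were searched. Longer variants of the AP-1 site, such as the TGACATCA in the window of *Jun*, were not counted. For *Fosl2* and *Jund* the RefSeq start lies 1109 and 1210 bases from the GENCODE canonical start, so that other windows could be read there. A match is a description of the letters and no evidence of binding.

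All 10 genes passed the filter on low counts. In the libraries labelled cKO, 4 of the 10 were higher (*Fos*, *Atf3*, *Egr1* and *Junb*) and 2 were lower (*Egr2* and *Fosl1*) with an adjusted p below 0.05 in edgeR's quasi-likelihood test. *Fosb*, *Fosl2*, *Jun* and *Jund* did not pass. Of all tested genes, 20.1% were higher and 19.2% lower by the same rule, so that 4 of 10 lies above the background share and 2 of 10 beside it. With a log2 fold change of at least 1 in size also required, *Fos* and *Atf3* remained among the higher genes, against 6.56% of all genes, and *Egr2* among the lower ones, against 4.64%. WT and cKO libraries were fully separated for the 6 genes that passed, where 49.2% of all tested genes were so separated, 25.3% upward and 23.9% downward. The median log2 fold change over the 10 genes was 0.05, beside 0.0077 over all tested genes, so the genes did not move one way as a group.

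**Figure D1:**
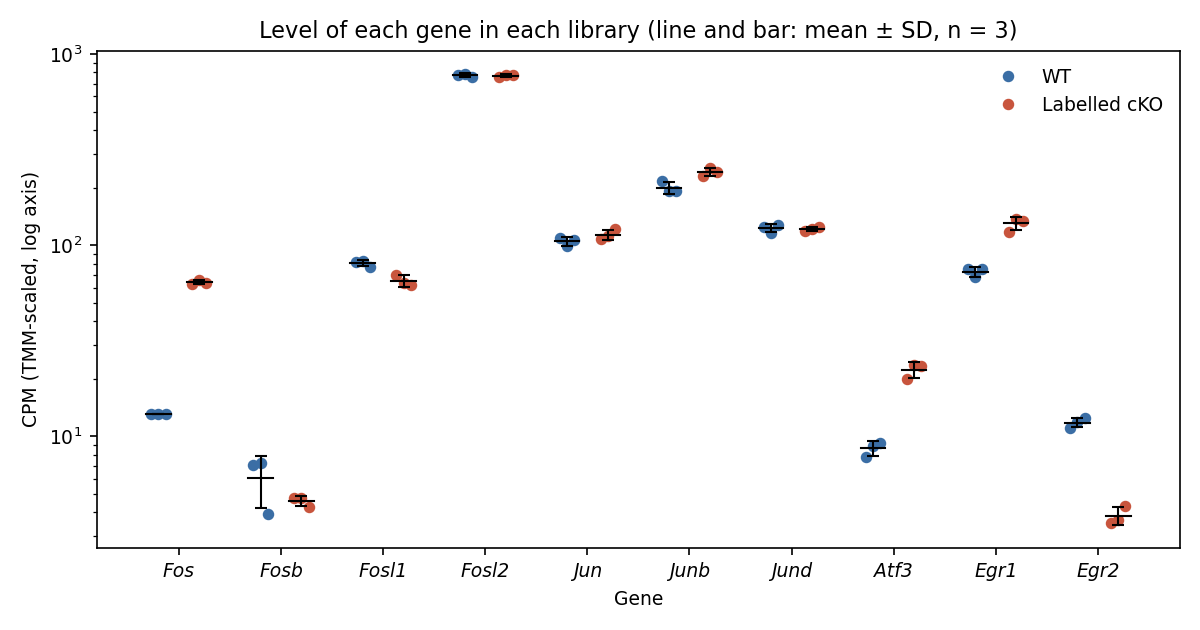
Level of each of the 10 genes in CPM on a log axis, with 1 point per library, and black lines for the mean ± SD of 3 libraries. *Fos* lies at 13.0 to 13.1 CPM in WT against 62.9 to 66.1 CPM in the libraries labelled cKO, whereas the points of *Fosl2* and *Jund* overlap between genotypes.

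*Fos* (ENSMUSG00000021250, chromosome 12 from 85520664 to 85524047, plus strand), which encodes c-Fos, differed most of the 10. It was counted 587, 648 and 510 times in WT against 2648, 2629 and 2870 times in the libraries labelled cKO. Scaled for depth, this was 13.0, 13.1 and 13.1 CPM against 62.9, 66.1 and 63.2 CPM. Each library labelled cKO thus lay far above every WT library, and the coefficient of variation within a genotype was 0.4% and 2.76%. At 510 to 648 counts, the WT value is smaller than counting noise alone would give, so it is no measure of reproducibility. The log2 fold change was 2.29 (SE 0.061, 95% confidence interval 2.16 to 2.42), a 4.90-fold difference (adjusted p = 5.13e-15, edgeR). Ranked by fitted fold change, *Fos* stood 448th from the top of 17146 tested genes.

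*Fosb* (chromosome 7 from 19036621 to 19043976, minus strand), the closest relative of *Fos*, did not share this difference. It was counted 317, 358 and 152 times in WT against 200, 189 and 194 times in the libraries labelled cKO. In CPM the WT libraries were at 7.04, 7.21 and 3.92 and the others at 4.75, 4.75 and 4.27, so WT replicate 3 lay below all 3 libraries labelled cKO and the other WT replicates above them. The log2 fold change was -0.41 (SE 0.20, adjusted p = 0.121, edgeR). Without WT replicate 3 it was -0.64 with an adjusted p-value of 0.00187, so the call for *Fosb* rests on that 1 library. Per length, the ratio of *Fos* to *Fosb* RNA was 4.80 to 8.91 in WT against 35.1 to 39.3 in the libraries labelled cKO.

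*Fosl1* (chromosome 19 from 5497575 to 5505974), which encodes Fra-1, was modestly lower. Its WT libraries were at 81.5, 83.1 and 77.3 CPM and the libraries labelled cKO at 70.0, 63.7 and 61.6 CPM, without overlap. The log2 fold change was -0.31 (SE 0.056, adjusted p = 0.000216, edgeR). *Fosl2* (chromosome 5 from 32293145 to 32315186), which encodes Fra-2, was by far the most highly counted of the 10, ranking 117th of all tested genes by mean CPM. Its level was 777 ± 15.1 CPM in WT, next to 770 ± 11.5 CPM in the libraries labelled cKO (SD, n = 3 each). The genotypes overlapped, and the 95% confidence interval of the log2 fold change, -0.08 to 0.06, lay close around 0 (log2 fold change -0.01, adjusted p = 0.817, edgeR).

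The JUN genes, whose products are the usual partners of FOS proteins, differed little. *Junb* (chromosome 8 from 85701113 to 85705347) was the one that passed. It was at 215, 192 and 191 CPM in WT against 229, 253 and 240 CPM in the libraries labelled cKO, a log2 fold change of 0.27 (SE 0.051, adjusted p = 0.000364, edgeR). *Jun* (chromosome 4 from 94937271 to 94940459) was at 109, 99.0 and 106 CPM in WT and at 108, 112 and 121 CPM in the others. These ranges overlapped, and its log2 fold change of 0.12 (95% confidence interval 0.0031 to 0.23) had an unadjusted p of 0.0446 and an adjusted p of 0.099 (edgeR). *Jund* (chromosome 8 from 71151599 to 71153265), which is transcribed more steadily than the other JUN genes, was at 123 ± 5.99 and 121 ± 2.67 CPM (SD, n = 3 each), with a log2 fold change of -0.02 (95% confidence interval -0.12 to 0.08, adjusted p = 0.801, edgeR). Genes on the opposite strand overlap *Junb* (*Prdx2*), *Jun* (*Junos*), *Jund* (*Gm11175*) and *Fosl1* (*Ccdc85b*). The strand setting of the counting is not given in the sources used here, so reads of these pairs may not have been told apart. All 4 of these neighbours passed the test. *Prdx2* had a log2 fold change of -0.20, opposite to that of *Junb*, and *Ccdc85b* one of -0.17, in the direction of *Fosl1*. *Junos* had one of 0.48 (adjusted p = 0.000459, edgeR), in the direction of *Jun*, and *Gm11175* one of 0.46 (adjusted p = 0.000906, edgeR), whereas *Jund* was at -0.02.

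*Atf3* (ENSMUSG00000026628, chromosome 1 from 190902493 to 190950236, minus strand) encodes a stress-induced bZIP factor that, as a homodimer, mostly represses transcription, including that of cytokine genes after Toll-like receptor signals. Its counts were 353, 441 and 360 in WT against 838, 938 and 1062 in the libraries labelled cKO, or 7.84, 8.89 and 9.27 CPM against 19.9, 23.6 and 23.4 CPM. Every library labelled cKO was thus above every WT library, by a log2 fold change of 1.36 (SE 0.10, 95% confidence interval 1.15 to 1.58, adjusted p = 4.79e-09, edgeR), or 2.57-fold. Of its relatives in the stress response, *Atf4* fell (log2 fold change -0.38, adjusted p = 2.97e-06, edgeR) and *Ddit3*, which encodes CHOP, fell as well (log2 fold change -0.72, adjusted p = 1.15e-06, edgeR), so *Atf3* moved apart from both. Other ATF genes went both ways or did not pass. *Atf6b* was higher (log2 fold change 0.19, adjusted p = 0.0169, edgeR) and *Atf7* lower (-0.22, adjusted p = 0.00104, edgeR). *Atf5* did not pass (0.05, adjusted p = 0.468, edgeR). Nor did *Atf1* (0.11, adjusted p = 0.223), *Atf2* (-0.07, adjusted p = 0.422) and *Atf6* (0.12, adjusted p = 0.0683, edgeR for each). All these ATF genes other than *Atf3* were named after their values had been seen.

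The EGR genes went in opposite directions. *Egr1* (ENSMUSG00000038418, chromosome 18 from 34992876 to 34998037) was counted 3381, 3365 and 2903 times in WT against 4958, 5454 and 6108 times in the libraries labelled cKO, or 75.1, 67.8 and 74.8 CPM against 118, 137 and 134 CPM. Its log2 fold change was 0.84 (SE 0.060, adjusted p = 3.14e-09, edgeR), a 1.79-fold rise without overlap between the genotypes. *Egr2* (ENSMUSG00000037868, chromosome 10 from 67371305 to 67378018), whose product binds nearly the same DNA site as that of *Egr1*, was counted 500, 588 and 483 times in WT and 149, 146 and 196 times in the others. In CPM this was 11.1, 11.8 and 12.4 against 3.54, 3.67 and 4.31, again without overlap and now with WT above. The log2 fold change was -1.62 (SE 0.13, 95% confidence interval -1.89 to -1.34, adjusted p = 1.61e-08, edgeR), and *Egr2* ranked 470th from the bottom of all tested genes. Per length, the ratio of *Egr1* to *Egr2* RNA was 4.34 to 5.12 in the WT libraries and 23.6 to 28.3 in the libraries labelled cKO. *Egr3*, named after its values had been seen, fell like *Egr2* (103 to 141 counts in WT, 44 to 75 in the others, log2 fold change -1.01, adjusted p = 0.00468, edgeR), and *Egr4*, named likewise, had 0 to 2 counts per library and was not tested.

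**Figure D2:**
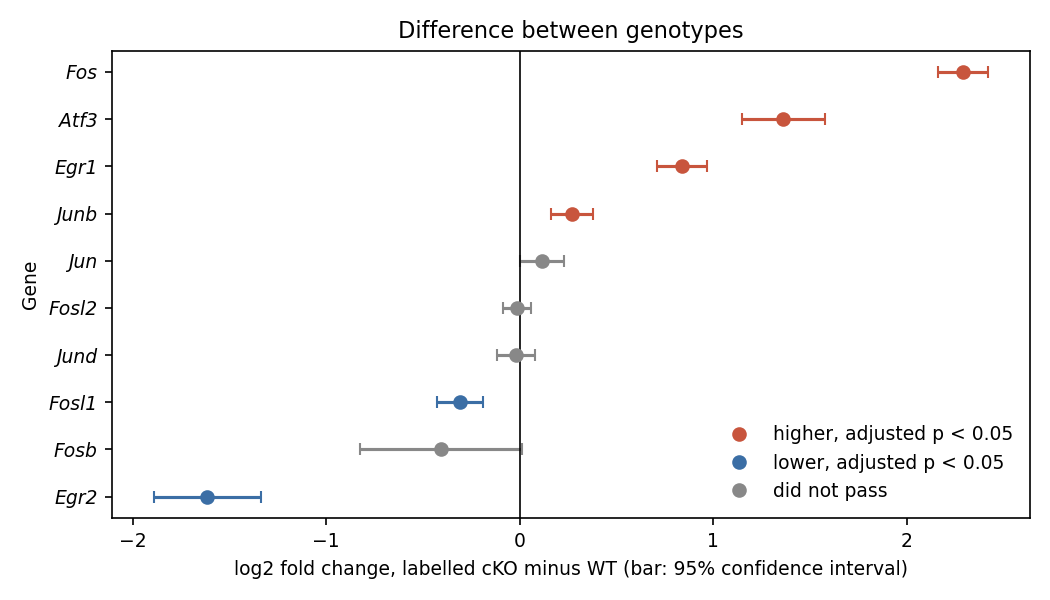
Log2 fold change of each gene between the libraries labelled cKO and WT, with bars for the 95% confidence interval from edgeR. *Fos* is at 2.29 and *Egr2* at -1.62, while *Fosl2*, *Jund* and *Jun* lie within 0.12 of 0.

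To compare levels between genes, CPM were divided by the length of the gene model in kilobases (RPKM). In WT the order from the top was *Junb* at 86.8 ± 5.94, *Fosl2* at 80.2 ± 1.56, *Jund* at 73.7 ± 3.60, *Fosl1* at 39.7 ± 1.48, *Jun* at 32.9 ± 1.66 and *Egr1* at 16.2 ± 0.921 RPKM (SD, n = 3 each). *Fos* followed at 5.56 ± 0.022, *Atf3* at 4.02 ± 0.344, *Egr2* at 3.47 ± 0.197 and *Fosb* at 0.970 ± 0.297 RPKM (SD, n = 3 each). *Atf3* and *Egr2* overlapped in WT and no other neighbours did. In the libraries labelled cKO, *Junb* (105 ± 5.15), *Fosl2* (79.6 ± 1.19) and *Jund* (72.7 ± 1.60 RPKM) kept the first places. *Fos* stood at 27.2 ± 0.753 RPKM there, close behind *Egr1* at 29.0 ± 2.34 RPKM, with which it overlapped. *Fosl1* (32.0 ± 2.16) overlapped both *Jun* (35.6 ± 2.15 RPKM) and *Egr1*. *Atf3* was at 10.4 ± 0.958, *Egr2* at 1.13 ± 0.122 and *Fosb* at 0.736 ± 0.045 RPKM (SD, n = 3 each), each apart from its neighbours.

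The make-up of the FOS family RNA differed between genotypes. Summed over the 4 genes, the FOS family was at 123 to 129 RPKM in WT against 138 to 140 RPKM in the libraries labelled cKO. *Fos* made up 4.40 ± 0.132% (SD, n = 3) of it in WT and 19.5 ± 0.512% (SD, n = 3) in the others. The share of *Fosl1* was 31.4 ± 0.358% against 22.9 ± 1.43%, and that of *Fosl2* 63.5 ± 0.444% against 57.0 ± 1.21%. *Fosl2* was thus the main FOS transcript in every library, and its own level hardly differed. Of the JUN family RNA, *Junb* held 44.9 ± 1.64% in WT and 49.1 ± 1.18% in the others, *Jund* 38.1 ± 1.44% and 34.1 ± 0.672%, and *Jun* 17.0 ± 0.219% and 16.7 ± 0.725% (SD, n = 3 each). The ratio of *Fos* to *Jun* RNA per length was 0.162 to 0.179 in WT against 0.707 to 0.799 in the libraries labelled cKO. These shares and ratios were compared over 3 libraries against 3, where an exact two-sided permutation test cannot give a p-value below 0.1.

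**Figure D3:**
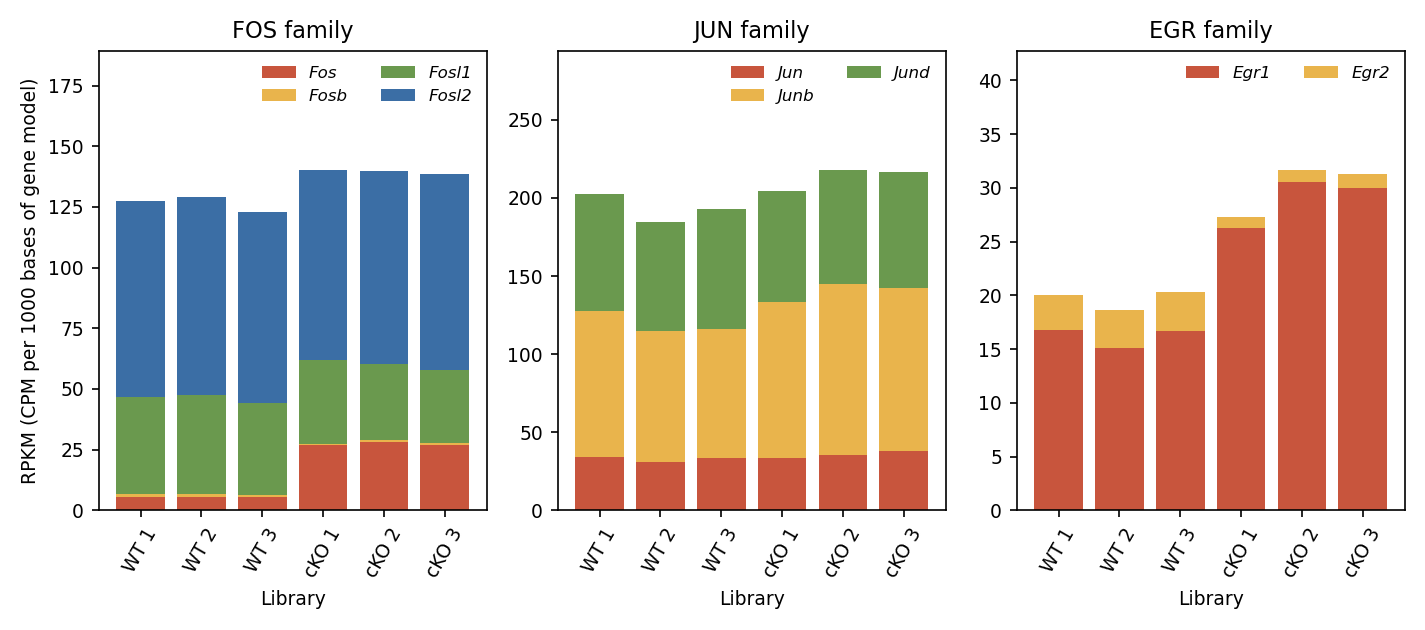
Stacked bars of RPKM by library for the FOS, JUN and EGR families, with the libraries labelled cKO written as cKO. The *Fos* segment grows from 4.40% to 19.5% of the FOS bar, and the *Egr2* segment of the EGR bar shrinks from 17.7% to 3.76%.

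The genes were also compared within the genotypes. After the mean of each genotype was subtracted, the 45 pairwise correlations of log2 CPM over the 6 libraries ran from -0.85 (*Fosl1* and *Egr1*) to 0.81 (*Jun* and *Jund*), with a median of 0.15. Of these pairs, 11 were above 0.5 and 8 below -0.5, and *Jun*, *Jund* and *Egr1* correlated with each other at 0.78 to 0.81. With 6 libraries and 2 means subtracted, such values are a description of these libraries. The 3 tested genes with a mean of at least 1 CPM whose deviations were most like those of *Fos* were *Zfp629*, *Sned1* and *Cenps*, with correlations of 0.993 to 1.00 over 6 libraries. *Fos* itself varied by 0.4% within WT and by 2.76% within the libraries labelled cKO, so these correlations rest mostly on the latter. Of 13875 genes compared, 220 exceeded 0.9.

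The other genes of the pathway were taken from lists written by hand, by role. The counts of each list are to be read beside the shares over all tested genes, 20.1% higher and 19.2% lower. The list of 31 upstream regulators held MAP kinases, kinases that act before or after them, and serum response factor with its cofactors. Of these, 7 were higher and 9 lower, with a median log2 fold change of 0.02. *Rps6ka1*, which encodes the kinase RSK1 downstream of ERK, rose from 14.1 to 29.9 CPM (log2 fold change 1.09), and *Map3k5*, which encodes the stress kinase ASK1, rose from 5.56 to 11.7 CPM. *Map2k1*, which encodes the ERK kinase MEK1, fell by 0.38 and *Mapk13*, a p38 kinase gene, fell by 0.51 on the log2 scale. *Srf*, *Elk1*, *Elk3* and *Elk4*, factors that act at CArG boxes of early response genes, did not pass, with log2 fold changes between -0.09 and 0.13. Of the coactivators of serum response factor on the list, *Mrtfa* was lower (log2 fold change -0.22, adjusted p = 0.0016, edgeR) and *Mrtfb* did not pass (0.09). All of these were named after their values had been seen. Of 27 tested other bZIP genes, 9 were higher and 5 lower (median 0.11). *Maf* (38.6 to 135 CPM), which encodes a large MAF factor, was among the higher ones, and *Maff* (log2 fold change -0.70) and *Ddit3* had the smallest p-values among the lower ones.

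Of 31 tested other early response genes, 14 were higher and 11 lower, with a median log2 fold change of 0.11. Over all tested genes, 20.1% were higher and 19.2% lower. *Zfp36l1*, which encodes an RNA-binding protein that promotes mRNA decay, rose from 126 to 251 CPM and *Ier2*, an immediate early gene, from 25.1 to 54.9 CPM. *Ccn2*, which encodes connective tissue growth factor, fell from 4323 to 2905 CPM and *Plk2*, a polo-like kinase gene, from 191 to 108 CPM. Of 17 tested feedback genes, which encode MAP kinase phosphatases, Sprouty proteins and the EGR corepressors NAB1 and NAB2, 5 were higher and 8 lower (median -0.25). *Dusp6* and *Dusp7*, phosphatases of ERK, rose by log2 fold changes of 0.80 and 0.70, whereas *Dusp10*, a phosphatase of p38 and JNK, fell by 0.90 and *Errfi1*, an inhibitor of the EGF receptor, fell by 0.55 on the log2 scale. *Nab1* rose (log2 fold change 0.29) and *Nab2* fell (-0.32), both named after their values had been seen.

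Of 22 genes known as AP-1 targets in one cell type or another, 11 were higher and 7 were lower, with a median log2 fold change of 0.10. Among all tested genes, 20.1% were higher and 19.2% lower. The collagenase gene *Mmp13* rose from 879 to 2938 CPM (log2 fold change 1.74) and the stromelysin gene *Mmp3* from 5894 to 10126 CPM (0.78). The gelatinase gene *Mmp9* fell from 21.9 to 3.05 CPM (-2.83) and the growth factor gene *Hbegf* from 75.5 to 38.5 CPM (-0.97). Matrix metalloproteinase genes were therefore found among both the higher and the lower genes. *Nfatc1*, the osteoclast factor known to act downstream of c-Fos, was at 88.5 CPM in WT and 87.1 CPM in the others (log2 fold change -0.02, adjusted p = 0.731), and was likewise named after its values had been seen. Adjusted p-values are those of edgeR's quasi-likelihood test over all 17146 genes. Of 6 tested osteoblast markers, 2 were higher and 3 lower, among them *Ibsp* (1.73 to 6.92 CPM) and *Col1a1* (5802 to 3650 CPM).

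**Figure D4:**
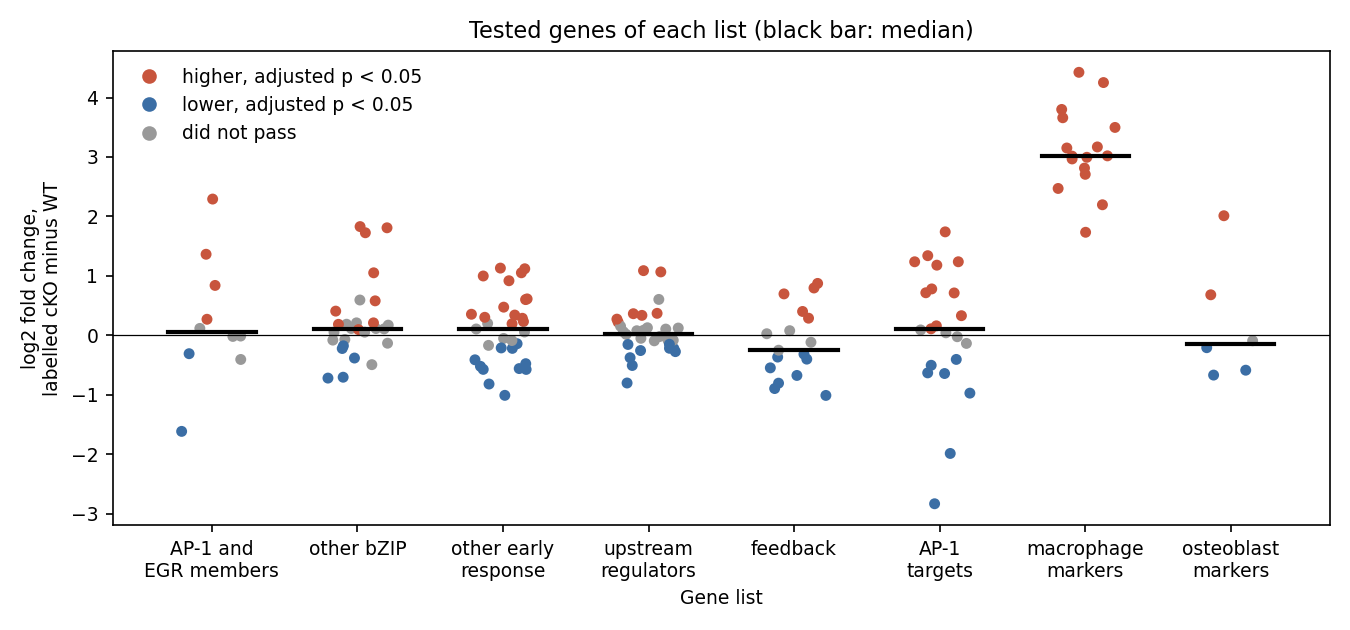
Log2 fold change of the tested genes of each list, 1 point per gene, colored by whether the gene passed, with a black bar for the median. The 10 factors and the pathway lists scatter around 0, with medians from -0.25 to 0.11, while the macrophage markers lie around 3.02.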

How the data were processed

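Gene counts came from 6 libraries of stimulated primary osteocytes, 3 per genotype. The authors trimmed paired-end reads, aligned them to GRCm39 with HISAT2 2.0.5, counted them with featureCounts (1.55.0-p3 per the labels) and deposited raw counts, with gene lengths and coordinates. Nothing says whether replicates came from separate animals, so p-values measure the spread between these libraries. Even numbers made up 63.4% to 65.7% of the counts between 1 and 10, so mates may have been counted separately.

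Counts were filtered with filterByExpr, scaled by TMM and tested with edgeR 4.0.16 (glmQLFit, glmQLFTest, genotype as the only term) in R 4.3.3, with Benjamini-Hochberg adjustment over 17146 genes. Calls are at an adjusted p below 0.05. Standard errors are the log2 fold change divided by the square root of F. Library totals of 39566835 to 49734046 set the precision, and the biological coefficient of variation was 8.36%. The procedure was tested on counts simulated with the dispersions of this same fit, which cannot address the labels, sex or cell content.

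Replicates of a genotype differed by more than counting noise (chi-square per gene 4.82 to 13.9) and were counted separately. Same-numbered libraries did not deviate together (r of -0.01 to 0.0023). The 10 genes and all lists were chosen with earlier results of these data known. Genes named are the 10, *Gsdmd*, the sex-linked genes, the markers, the 2 higher and 2 lower genes of each list with the smallest p, the 3 most like *Fos*, and, outside that rule and after values had been seen, genes overlapping the 10 and those said to be so named. One gene that this rule selects is not reported here. The symbol *Ddit3* stands for 2 gene entries, and the one with counts was used. Alternatives were DESeq2 1.42.0, limma-voom (limma 3.58.1), other scalings, filters and limits, halved counts, a replicate block and each library left out.

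Promoter windows are from RefSeq (GRCm38.p6 table), with positions found by exact match in GRCm39, the build of the files.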

Additional observations from a re-analysis of the deposited data

How the results depend on the processing

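The 6 calls among the 10 genes (*Fos*, *Atf3*, *Egr1*, *Junb*, *Egr2* and *Fosl1*) kept their direction and their side of the threshold under DESeq2, limma-voom, 2 other scalings, 2 other filters, robust dispersions, halved counts and the leaving out of each library. Over all these settings the log2 fold change lay between 2.22 and 2.31 for *Fos*, 1.28 and 1.44 for *Atf3*, 0.77 and 0.91 for *Egr1*, 0.20 and 0.31 for *Junb*, -1.71 and -1.56 for *Egr2*, and -0.38 and -0.27 for *Fosl1*. With each library left out, *Fosb* ranged from -0.64 to -0.27 and passed (adjusted p = 0.00187) without WT replicate 3. With library size only, *Jun* passed (log2 fold change 0.14, adjusted p = 0.0476, edgeR). Values near 0 changed sign. *Fosl2* went to 0.0095 with library size only and to 0.00074 without cKO replicate 1. *Jund* went to 0.0036 with library size only and to 0.0063 without WT replicate 3. With each library left out, *Fosl2* ranged from -0.032 to 0.00074 and *Jund* from -0.067 to 0.0063. Over all settings, *Fosl2* ranged from -0.081 to 0.0095 and *Jund* from -0.087 to 0.0063. These settings did not make either pass. With a log2 fold change of at least 1 required, 2 of the 10 genes were higher and 1 lower, and 1124 and 796 of all genes. By that limit 4 and 0 other bZIP genes, 3 and 1 early response genes, 2 and 0 upstream regulators, 0 and 1 feedback genes and 5 and 2 AP-1 targets were higher and lower, and 1 and 0 osteoblast markers. Without WT replicate 3, 8 other bZIP genes were lower in place of 5, and without cKO replicate 3, 1 osteoblast marker in place of 3. The replicate numbers did not pair the libraries. With the replicate block, 4 of the 10 genes were higher and 2 lower, as without it, and 3298 and 3098 of all genes, so it changed no call among the 10. The cause of these changes was not tested. *Egr4*, with 0 to 2 counts per library, could not be compared at this depth.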
